A study of Mus musculus with 6 samples.

Results

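Chemokines and their receptors were measured in the ear skin of young mice whose lymphatic endothelium had been targeted for loss of Kdr, the gene of VEGFR2, a receptor for vascular endothelial growth factors. The members were taken by gene symbol: the Ccl and Cxcl ligands, the Ccr and Cxcr receptors, Cx3cl1, Xcl1, Xcr1 and the atypical receptors Ackr2, Ackr3 and Ackr4. The pairs of the lymphatic homing and stromal axes (Ccl19 and the Ccl21 genes with Ccr7, and Cxcl12 with Cxcr4) were left out of this set. It held 49 of the 18482 genes listed, made up of 31 ligands, 15 signalling receptors and 3 atypical receptors. Of these, 35 had enough counts to be tested (22 ligands, 10 receptors and 3 atypical receptors), as did 14856 genes in all.

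The design has 1 comparison, lecko against control skin, each with 3 libraries of polyadenylated RNA from ear skin at postnatal day 21. Both groups received tamoxifen, which switches on the recombinase used to delete a gene. The lecko mice carried a deletion of Vegfr2 (Kdr) described as lymphatic-specific, and the controls were littermates. Which cells of these samples lost Kdr was not tested. The sources used here do not give the Cre driver, the alleles the controls carried or the tamoxifen schedule of these mice. The labels do not name an animal or litter for each library, so p-values measure only the spread between these 6 samples, which may be technical.

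Chemokines are small secreted proteins that guide leukocytes along gradients, and each is read by G protein-coupled receptors carried mostly by leukocytes. In skin, Langerhans and dendritic cells, resident T cells and macrophages use them to enter, stay in or leave the tissue. Atypical receptors bind chemokines without the usual G protein signal, and take them up and degrade them. The lymphatic vessels through which immune cells leave the skin are a main site of such scavenging.

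Depth was similar in all libraries, at 17242921 to 17825135 counts. Kdr stood at 32.6, 31.3 and 38.5 CPM (CPM being counts scaled to a common library size) in controls 1 to 3 and at 9.76, 11.2 and 10.2 CPM in lecko 1 to 3, and was lower in every lecko library. Summed over 4 Y-linked genes, controls 2 and 3 held 242 and 265 CPM and the other 4 libraries at most 1.19 CPM. The groups therefore differ in Y-linked expression as well as genotype. Members with an unadjusted p under 0.05 are given also without controls 2 and 3. That leaves 1 control against 3 lecko libraries, so only the log2 fold change is given and no p-value. Lecko 1 held the highest CPM of 17 of the 35 tested members, and control 3 the lowest of 15.

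No chemokine or receptor gene passed the threshold of 0.05 in edgeR's quasi-likelihood test, with p-values adjusted over all tested genes by the method of Benjamini and Hochberg. By that rule 3 genes were called in all, or 0.0202% of those tested, and limma-voom called 0 members as well. DESeq2 called Ccr2 alone among the members, against 0.215% of all genes. At an unadjusted p under 0.05, 9 members were higher in lecko skin, where the share over all genes was 4.89%, and 2 were lower, where it was 3.68%. Among the 9 were Ccl2, Ccl7, Ccl12, Ccr1, Ccr2, Ccr4, Ccr6 and Cxcr6, and the 2 were Cxcl14 and Ackr4. Of the 35 tested members 29 had a log2 fold change above 0, against 51.9% of all genes, and their median was 0.31, against 0.006 over all genes. All 3 lecko libraries lay above all 3 controls for 9 members, where the share over all genes was 7.37%, and below them for 1, where it was 7.23%. With Y-linked expression as a covariate, 5 members were higher at an unadjusted p under 0.05, among them Ccl2, Ccl22, Ccr2 and Ccr4, and 0 were lower. Of all genes, 5.22% were under 0.05 in that fit, in either direction. Ccl7, Ccl12, Ccr1, Ccr6 and Cxcr6 were above 0.05 in that fit. The smallest edgeR adjusted p of a member was 0.901, and the contrast rests on control 1 as the sole control under 10 CPM of Y-linked genes. The plot of fold changes by role shows the signalling receptors to the right of 0 and the ligands spread on both sides.

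**Figure D1:**
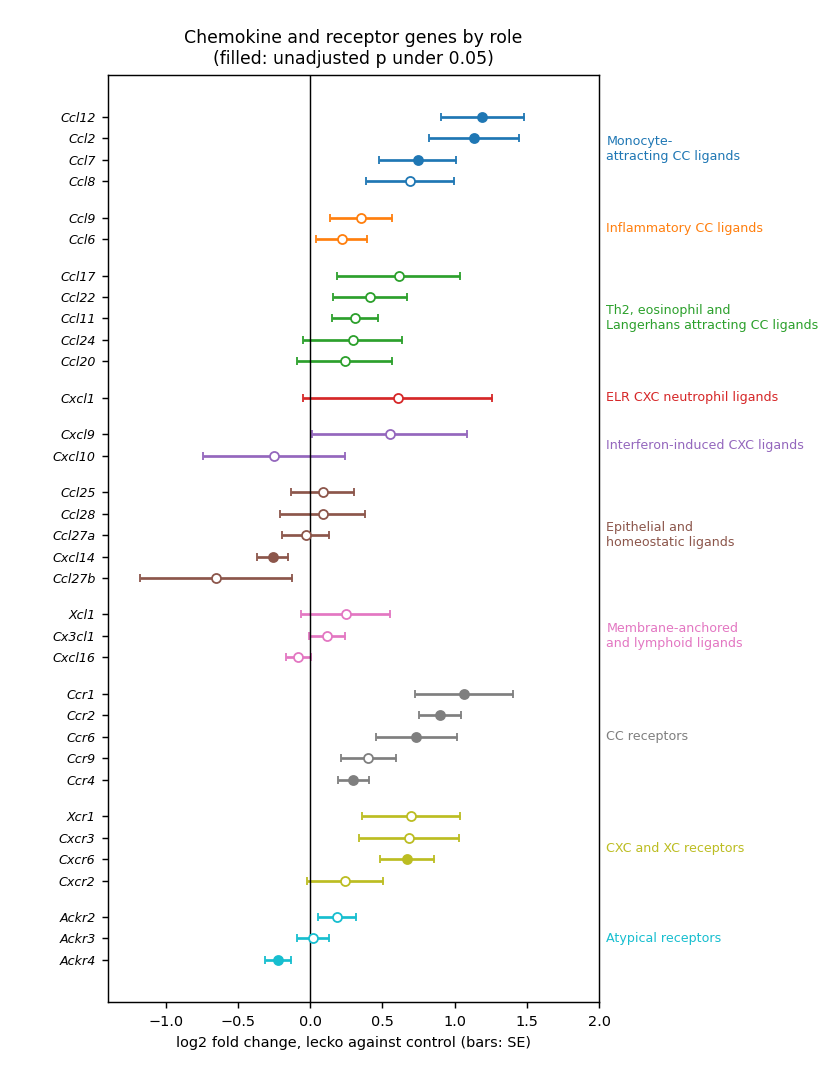
Log2 fold change of lecko against control for tested members (horizontal axis), grouped and coloured by role, with bars for 1 standard error and filled points for an unadjusted p under 0.05. The signalling receptors plotted lie above 0, and the filled points below 0 are Cxcl14 and Ackr4.

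The upstream sequences of 4 members are shown for the motifs they hold: Ccl12 and Ccl8 are neighbours on chromosome 11 with like TATA boxes, and Ccr1 and Cxcl10 hold the NF-kB and interferon motifs searched. They are the 250 bases before the RefSeq start site in GRCm38.p6, written 5′ to 3′ on the strand of the gene, with matches in capitals. Ccl12 (chr11:82101595-82101844, plus strand) and Ccl8 (chr11:82114935-82115184, plus strand) each hold a TATA box, 31 and 32 bases before the start. Ccr1 (chr9:123968693-123968942, minus strand) holds an NF-kB match 74 bases before its start. Cxcl10 (chr5:92348890-92349139, minus strand) holds an interferon response element (ISRE), 2 NF-kB matches and an AP-1 match.

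Ccl12: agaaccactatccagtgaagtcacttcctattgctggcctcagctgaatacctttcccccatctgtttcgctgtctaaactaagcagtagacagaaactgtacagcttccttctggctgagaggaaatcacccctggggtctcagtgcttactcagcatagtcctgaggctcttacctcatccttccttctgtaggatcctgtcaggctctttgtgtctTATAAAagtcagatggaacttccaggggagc

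Ccl8: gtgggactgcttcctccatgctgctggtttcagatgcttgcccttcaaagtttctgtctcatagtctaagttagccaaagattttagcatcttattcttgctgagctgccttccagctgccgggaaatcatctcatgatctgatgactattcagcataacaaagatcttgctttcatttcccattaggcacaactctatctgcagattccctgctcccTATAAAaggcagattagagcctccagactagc

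Ccr1: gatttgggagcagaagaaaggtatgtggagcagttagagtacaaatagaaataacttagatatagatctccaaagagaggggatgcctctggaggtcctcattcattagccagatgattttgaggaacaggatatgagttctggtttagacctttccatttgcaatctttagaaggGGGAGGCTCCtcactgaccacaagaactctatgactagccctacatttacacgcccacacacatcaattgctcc

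Cxcl10: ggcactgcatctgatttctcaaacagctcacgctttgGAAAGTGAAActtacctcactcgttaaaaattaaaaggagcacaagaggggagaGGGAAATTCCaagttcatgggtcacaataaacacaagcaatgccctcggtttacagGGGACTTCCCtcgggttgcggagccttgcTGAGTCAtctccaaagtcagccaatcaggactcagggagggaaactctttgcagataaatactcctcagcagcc

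Promoters in the RefSeq table were found for 37 of the 49 members, with 44 start sites, and the table has no entry for Ccl2 or Ccl7. A NF-kB match (GGGA, any 4 bases, then CC, on either strand) was in 19 of the 44 (43.2%), against 17.6% of all 32851 promoters of the same length. By gene it was in 18 of the 37. Overlapping windows of Ccl27a count the same match more than once, and its copy Ccl27b carries it too. The TATA box (TATAAA, gene strand alone) was in 10 (22.7%, against 7.6%). The GC box (GGGCGG, either strand) was in 6 (13.6%, against 32.7%). AP-1 (TGANTCA) was in 6 (13.6%, against 6.7%), a STAT site (TTCNNNGAA) in 3 (6.8%, against 7.0%) and the ISRE (TTTC, any 2 bases, then TTTC) in 2 (4.5%, against 3.0%), all on either strand. Among the ligands, NF-kB matches were in promoters of Ccl1, Ccl20, Ccl22, Ccl27a, Ccl27b, Cxcl1, Cxcl2, Cxcl3, Cxcl9, Cxcl10 and Cxcl13. Some of these windows reach into exons of neighbouring or longer transcripts, and a match is a run of letters, not a measured binding site.

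Levels of the tested members per kilobase of merged exon spanned a 275-fold range in control skin, from Cxcl14 at 53.9 CPM per kb to Ccr9 at 0.196 CPM per kb. Cxcl14 gave 52.0, 51.4 and 58.2 CPM per kb in the controls and Ccl8, the next in order, 46.8, 58.5 and 27.0 CPM per kb, so these neighbours overlapped. After them came Ccl6 (24.6 CPM per kb), Ccl27b (16.8), the scavenger Ackr3 (15.2), Ccl9 (15.1) and Ackr4 (12.5), all control means. The place of Ccl27b is uncertain, since it has only 425 exon bases and shares most of its sequence with other genes. Its controls gave 25.0, 11.1 and 14.2 CPM per kb, and its copy Ccl27a had a control mean of 3.20 CPM per kb. The signalling receptors lay lower, led in controls by Ccr4 at 4.06 CPM per kb, with Ccr2 at 2.92 CPM per kb. In lecko skin Ccr2 stood at 5.45 CPM per kb and Ccr4 at 4.99 CPM per kb, and their libraries overlapped (4.51 to 6.18 and 4.64 to 5.5 CPM per kb).

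The CC ligands listed as monocyte-attracting (Ccl2, Ccl7, Ccl8, Ccl12) were all tested and all had positive log2 fold changes, 3 of them at an unadjusted p under 0.05. Ccl12, the mouse ligand also called MCP-5, gave 0.865, 0.632 and 0.571 CPM in the controls and 1.35, 1.92 and 1.48 CPM in the lecko libraries. The groups did not overlap. Its log2 fold change was 1.19 (SE 0.29, unadjusted p = 0.0025, edgeR adjusted p = 0.385), and 0.86 without controls 2 and 3. Ccl2, encoding MCP-1, gave 1.85, 1.84 and 2.80 CPM in the controls and 3.10, 6.78 and 4.37 CPM in the lecko libraries. Lecko 2 held the most, and its lowest lecko library lay just above its highest control. Its log2 fold change was 1.13 (SE 0.31, unadjusted p = 0.0063, edgeR adjusted p = 0.47), and 1.36 without controls 2 and 3.

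Ccl7, encoding MCP-3, gave 5.36, 3.45 and 2.97 CPM in the controls and 5.30, 8.65 and 5.79 CPM in the lecko libraries. Control 1 reached the level of lecko 1, so the groups overlapped. The log2 fold change of Ccl7 was 0.74 (SE 0.27, unadjusted p = 0.023, edgeR adjusted p = 0.53), and 0.29 without controls 2 and 3. Ccl8, the ligand MCP-2, gave 23.9, 29.9 and 13.8 CPM in the controls and 44.4, 29.9 and 34.9 CPM in the lecko libraries. Control 2 and lecko 2 were nearly level, though no control exceeded a lecko library, and control 3 was the lowest. Ccl8 had a log2 fold change of 0.69 (SE 0.30, unadjusted p = 0.066, edgeR adjusted p = 0.608), and of 0.60 without controls 2 and 3. It was 0.44 without control 3 (edgeR unadjusted p = 0.0535). Without control 2 it was 0.95 (unadjusted p = 0.026, edgeR adjusted p = 0.3545), in a fit where 11.6% of all genes had an unadjusted p under 0.05. Per kilobase, Ccl8 stood at 44.1 CPM per kb in controls and at 71.3 CPM per kb in lecko skin, where it had the highest mean of the tested members.

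**Figure D2:**
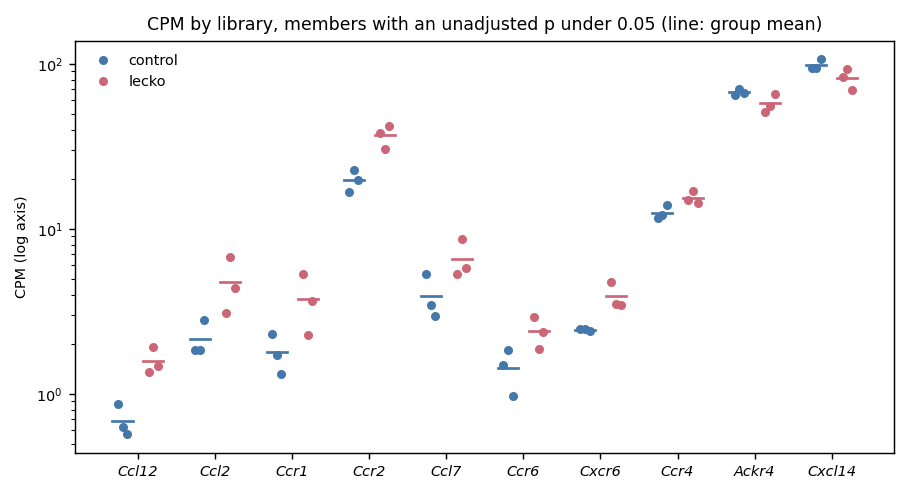
CPM in each library (log axis) for members with an unadjusted p under 0.05, controls in blue and lecko in red, with lines for group means. The 3 lecko points lie above the 3 control points for Ccl12, Ccl2, Ccr2, Ccr6, Cxcr6 and Ccr4, and below them for Cxcl14.

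Of the inflammatory CC ligands, Ccl6 and Ccl9 were tested and neither passed at an unadjusted p under 0.05. Ccl9, a myeloid cell attractant that binds CCR1, gave 44.7, 57.5 and 35.7 CPM in the controls and 71.9, 49.0 and 54.9 CPM in the lecko libraries. Control 2 lay above 2 of the 3 lecko libraries. The log2 fold change of Ccl9 was 0.35 (SE 0.22, unadjusted p = 0.15). It was 0.20 without control 3 (edgeR unadjusted p = 0.36) and 0.17 without lecko 1 (unadjusted p = 0.43). Without control 2 it was 0.54 (unadjusted p = 0.034, edgeR adjusted p = 0.38), where 11.6% of all genes had an unadjusted p under 0.05. Ccl6 was at 0.22 (SE 0.18). Ccl3, Ccl4 and Ccl5, attractants of monocytes and T cells, were below the count filter, with 20, 7 and 44 counts summed over the 6 libraries.

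The ligands that attract T helper 2 cells, eosinophils and Langerhans cells had 5 tested members, all with positive log2 fold changes from 0.24 to 0.61 and none at an unadjusted p under 0.05. Ccl11 (eotaxin), an eosinophil attractant, gave 12.0, 14.1 and 9.02 CPM in the controls and 15.9, 13.4 and 14.2 CPM in the lecko libraries. Control 2 lay within the lecko range. It had a log2 fold change of 0.31 (SE 0.16, unadjusted p = 0.082), which was 0.15 without control 3 (edgeR unadjusted p = 0.25). Without control 2 it was 0.46 (unadjusted p = 0.014, edgeR adjusted p = 0.28), where 11.6% of all genes had an unadjusted p under 0.05. Ccl17 and Ccl22, the CCR4 ligands made by dendritic cells, were at 0.61 (SE 0.43) and 0.41 (SE 0.26). Ccl20, the CCR6 ligand of keratinocytes, was at 0.24 (SE 0.33), and Ccl24, a further eotaxin, at 0.29 (SE 0.34).

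The neutrophil attractants Cxcl1, Cxcl2, Cxcl3 and Cxcl5 were scarce in both groups, and Cxcl1 alone was tested. Cxcl1 gave 1.10, 0.517 and 1.43 CPM in the controls and 1.02, 3.05 and 0.568 CPM in the lecko libraries. Lecko 2 stood apart at the top, and the other lecko libraries lay within the control range. Cxcl1 had a log2 fold change of 0.60 (SE 0.66, unadjusted p = 0.39), -0.35 without lecko 2, 0.29 without control 2, 0.93 without control 3 and 1.00 without lecko 3. Cxcl2 had 7, 2 and 8 counts in the controls and 65, 16 and 6 in the lecko libraries, so most of its 104 counts came from lecko 1. All 14 untested members together had 53, 36 and 51 counts in the controls and 164, 48 and 56 in the lecko libraries.

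**Figure D3:**
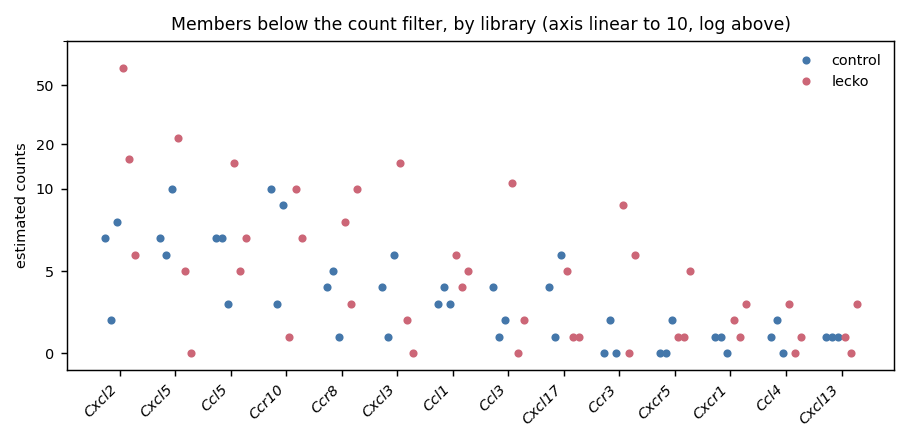
Estimated counts in each library (vertical axis, linear to 10 and log above) for the 14 members below the count filter, controls in blue and lecko in red. Most values are 10 counts or fewer, and the highest point is Cxcl2 in lecko 1 with 65 counts.

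The interferon-induced ligands of CXCR3 had log2 fold changes of opposite sign, with wide intervals. Cxcl9 gave 1.96, 1.90 and 1.08 CPM in the controls and 2.88, 0.735 and 3.63 CPM in the lecko libraries. Lecko 2 was the lowest of the 6 libraries and lecko 3 the highest. Cxcl9 had a log2 fold change of 0.55 (95% interval -0.72 to 1.82, unadjusted p = 0.34). It was 0.13 without lecko 3 (edgeR unadjusted p = 0.82) and 0.32 without control 3 (unadjusted p = 0.61). Without lecko 2 it was 0.98 (unadjusted p = 0.0084, edgeR adjusted p = 0.42), where 9% of all genes had an unadjusted p under 0.05. Cxcl10 was at -0.25 (95% interval -1.37 to 0.87), and it too was lowest in lecko 2, at 0.283 CPM.

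Among the epithelial and homeostatic ligands 2 of 5 tested members were positive and 3 negative. Cxcl14, a chemokine made constitutively by epithelium, gave 95, 93.8 and 106 CPM in the controls and 83.3, 93.3 and 69.7 CPM in the lecko libraries. All 3 lecko libraries were below all 3 controls, though lecko 2 was within 1 CPM of control 2. It had a log2 fold change of -0.26 (SE 0.11, unadjusted p = 0.037, edgeR adjusted p = 0.552), -0.16 without lecko 3 and -0.22 without controls 2 and 3. Ccl25 and Ccl28 were each at 0.09. Ccl27a, the keratinocyte ligand of CCR10, was at -0.03 (SE 0.16) and its copy Ccl27b at -0.65 (SE 0.53). Ccl27b shares 98.1% and Ccl27a 45% of its 50-base transcript words with other genes, so their split is uncertain. For each other member the share was at most 5.8%.

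Of the membrane-anchored and lymphoid ligands, 2 tested members were positive and 1 negative, none at an unadjusted p under 0.05. Cxcl16, the ligand of CXCR6, gave 25.9, 23.6 and 26.4 CPM in the controls and 23.6, 25.7 and 22.2 CPM in the lecko libraries. The groups overlapped throughout. Its log2 fold change was -0.08 (95% interval -0.28 to 0.11) and ran from -0.14 without lecko 2 to -0.03 without lecko 3, and 552 of its exon bases overlap Zmynd15 on the opposite strand. Cx3cl1 (fractalkine) was at 0.12 (SE 0.12) and Xcl1 (lymphotactin) at 0.25 (SE 0.31). Cxcl13, which draws B cells, had 7 counts in all.

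Among the CC receptors, Ccr1, Ccr2, Ccr4 and Ccr6 were higher at an unadjusted p under 0.05, and Ccr9 was not. Ccr2, the receptor of inflammatory monocytes, gave 16.7, 22.8 and 19.8 CPM in the controls and 38.2, 30.5 and 41.8 CPM in the lecko libraries. Every lecko library was above every control. The means were 19.7 ± 3.08 and 36.8 ± 5.77 CPM (SD, n = 3 each). In log2 terms Ccr2 differed by 0.90 (SE 0.15, 95% interval 0.56 to 1.24), with an unadjusted p of 0.00029 and an edgeR adjusted p of 0.331. DESeq2 gave an adjusted p of 3.3e-05 and limma-voom 0.317 for the same gene. Without controls 2 and 3 the log2 fold change of Ccr2 was 1.14.

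Ccr1, a receptor of monocytes and neutrophils, gave 2.31, 1.72 and 1.31 CPM in the controls and 5.30, 2.26 and 3.63 CPM in the lecko libraries. Control 1 was level with lecko 2, so the groups overlapped. The log2 fold change of Ccr1 was 1.06 (SE 0.34, edgeR adjusted p = 0.505), and 0.69 without controls 2 and 3.

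Ccr4, carried by skin-homing T cells, gave 11.7, 12.1 and 13.9 CPM in the controls and 15, 17 and 14.4 CPM in the lecko libraries. The groups did not overlap, and the gap between control 3 and lecko 3 was small. The log2 fold change of Ccr4 was 0.30 (SE 0.11, edgeR adjusted p = 0.53), and 0.39 without controls 2 and 3. Ccr6, found on Langerhans cell precursors and IL-17-producing T cells, gave 1.5, 1.84 and 0.971 CPM in the controls and 2.93, 1.87 and 2.38 CPM in the lecko libraries. Control 2 and lecko 2 nearly met. Ccr6 had a log2 fold change of 0.74 (SE 0.28, edgeR adjusted p = 0.544), and of 0.67 without controls 2 and 3. Ccr9, the gut-homing receptor, was at 0.40 (SE 0.19), and its exons overlap 3 other annotated genes, one of them (Gm17200) on the same strand, by up to 1932 bases. Ccr3, Ccr8 and Ccr10 were below the count filter, with 17, 31 and 40 counts.

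The CXC and XC receptors had 4 tested members, all positive. Cxcr6, carried by resident T cells, gave 2.48, 2.47 and 2.4 CPM in the controls and 4.74, 3.51 and 3.46 CPM in the lecko libraries. The controls were nearly equal and every lecko library lay above them. It had a log2 fold change of 0.67 (SE 0.19, unadjusted p = 0.0058, edgeR adjusted p = 0.467), and 0.65 without controls 2 and 3. Cxcr2, the neutrophil receptor, gave 7.67, 3.51 and 6.68 CPM in the controls and 8.01, 6.67 and 6.41 CPM in the lecko libraries. Control 2 was the low library, and the rest lay close together. It had a log2 fold change of 0.24 (SE 0.26), 0.46 without control 1, -0.03 without control 2, 0.13 without lecko 1 and -0.13 without controls 2 and 3. Xcr1, of cross-presenting dendritic cells, was at 0.70 (SE 0.34). Cxcr3, the receptor of the interferon-induced ligands, was at 0.68 (SE 0.35), with overlapping groups in both genes. Cxcr1 and Cxcr5 had 8 and 9 counts in all.

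Of the 3 atypical receptors, all tested, 2 were positive and 1 was lower at an unadjusted p under 0.05. Ackr4, a scavenger of CCL19, CCL21 and CCL25, gave 64.6, 70.4 and 67.0 CPM in the controls and 51.4, 55.6 and 65.8 CPM in the lecko libraries. Lecko 3 lay within the control range. Its log2 fold change was -0.23 (SE 0.09, unadjusted p = 0.034, edgeR adjusted p = 0.551), and -0.17 without controls 2 and 3. Ackr4 overlaps 479 exon bases of Acad11 on the opposite strand. Ackr2, the lymphatic scavenger of inflammatory CC chemokines, was at 0.18 (95% interval -0.12 to 0.48) and Ackr3, a scavenger of CXCL12, at 0.02 (95% interval -0.24 to 0.28).

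**Figure D4:**
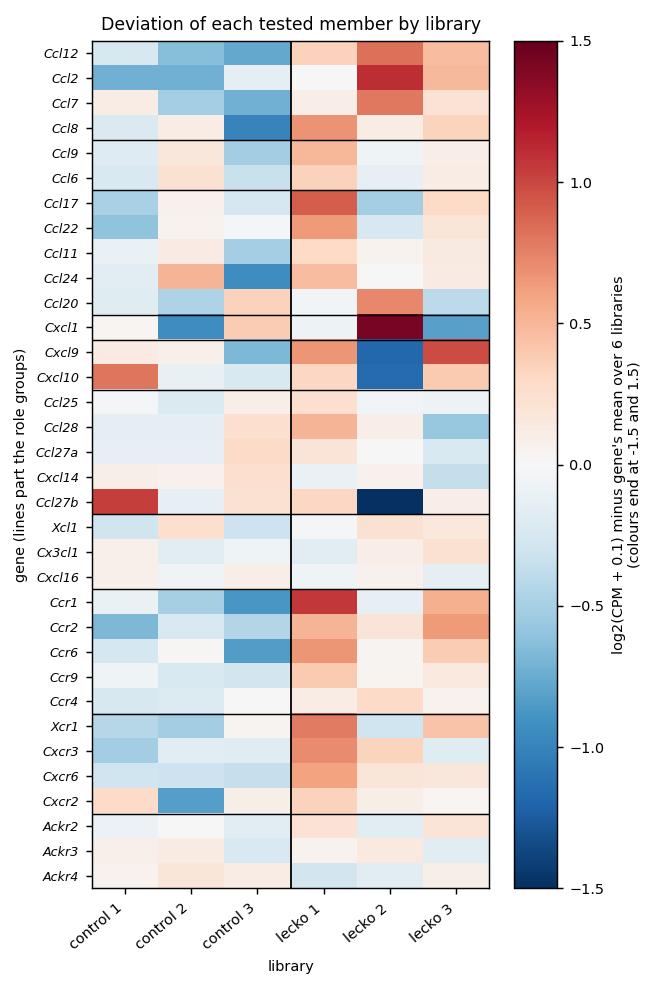
Deviation of log2(CPM + 0.1) from each gene's mean over the 6 libraries (colour, ending at -1.5 and 1.5) for tested members (vertical axis) in each library (horizontal axis), with lines between role groups. The lecko 1 column is red for most receptors, and lecko 2 holds the extremes of Cxcl1 and Ccl27b.

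Members that lie side by side in the genome can be set out by cluster. Of the 49, 29 lie within 500000 bases of another member. On chromosome 11 (82035577 to 82179812), Ccl2, Ccl7, Ccl11, Ccl12 and Ccl8 were tested, with Ccl1 below the filter. These 5 were all positive, with a median log2 fold change of 0.74. On chromosome 9 the receptors Ccr9, Cxcr6, Xcr1, Ccr1 and Ccr2 lie close together, with log2 fold changes of 0.40, 0.67, 0.70, 1.06 and 0.90, and Ccr3 among them was below the filter. In the second chromosome 11 cluster (83525778 to 83664683), Ccl9 and Ccl6 were the tested members and had a median of 0.28. On chromosome 5 (92321331 to 92348889), Cxcl9 and Cxcl10 differed in sign.

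Several leukocyte marker lists had mostly positive log2 fold changes in the same libraries. The pan-leukocyte list was positive for 10 of 10 genes, its median being 0.53 and 6 at an unadjusted p under 0.05. Their summed level was 338.2 to 475.5 CPM in the controls and 479.3 to 617.4 CPM in the lecko libraries. Monocyte and macrophage genes were positive for 11 of 12, with sums of 747.4 to 1058 CPM and 1034 to 1190 CPM. T cell genes were positive for 5 of 5 tested, with sums of 17.47 to 29.15 CPM and 28.27 to 38.48 CPM, and Cd8a had at most 5 counts in a library. Dendritic and Langerhans genes were positive for 9 of 9, with sums of 184.8 to 217.9 CPM and 221.6 to 237.7 CPM. Neutrophil genes ran from 4.37 to 103.7 CPM in the controls and 7.207 to 107.9 CPM in the lecko libraries. Of 3 tested, 2 were positive: Csf3r was at 0.87 (edgeR unadjusted p = 0.0095), S100a9 at 0.07 and S100a8 at -0.17. The counts of Mpo were 0 in 4 libraries, and those of Elane and Ly6g 0 in 5 each. Also below the filter, Retnlg had 1, 2 and 6 counts in the controls and 4, 5 and 5 in the lecko libraries. Mmp8 had 4, 14 and 7 counts in the controls and 7, 4 and 2 in the lecko libraries. Mast cell genes were positive for 4 of 6 tested, with a median of 0.03. Some markers of other tissues were lower. Blood and pan-endothelial genes were negative for 6 of 6, all at an unadjusted p under 0.05 (median -0.31). Skeletal muscle genes were negative for 5 of 5, 4 of them at that level (median -0.34). Fibroblast genes were positive for 3 of 5 (median 0.23). Keratinocyte genes were positive for 1 of 6 (median -0.114) and lymphatic endothelial genes for 2 of 6 (median -0.105). The part of these tissues in the members' values was not tested. In whole ear skin, more cells carrying a receptor and more of its RNA per cell cannot be told apart.

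Set against the mean log2 level of the pan-leukocyte genes in the same library, Ccr2 was higher in lecko skin by 0.42 (two-sided exact permutation p = 0.2). Against the dendritic and Langerhans genes Ccr2 was higher by 0.48 (exact p = 0.1), at 1.18 to 1.36 in controls and 1.62 to 1.87 in lecko libraries, which did not overlap. Relative to the monocyte and macrophage genes Ccr2 was higher by 0.43 (exact p = 0.2), and the groups overlapped. The T cell genes gave 0.36 (exact p = 0.3), also with overlap. Against the pan-leukocyte genes Ccr4 was at -0.17 (exact p = 0.6) and Cxcr6 at 0.16 (exact p = 0.4). Ackr4 and Cxcl14 were lower against the same genes, at -0.70 and -0.74 (exact p = 0.1 each, the smallest that 3 against 3 libraries allow). Their own log2 fold changes were -0.23 and -0.26, so the higher pan-leukocyte level in lecko skin makes up most of both differences. The values given here are from 72 such comparisons (18 genes, 4 marker lists). Since 0.1 is the smallest p possible, none could pass 0.05 (smallest Benjamini-Hochberg value 0.379). The part of leukocyte number in the receptor differences was not tested.

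**Figure D5:**
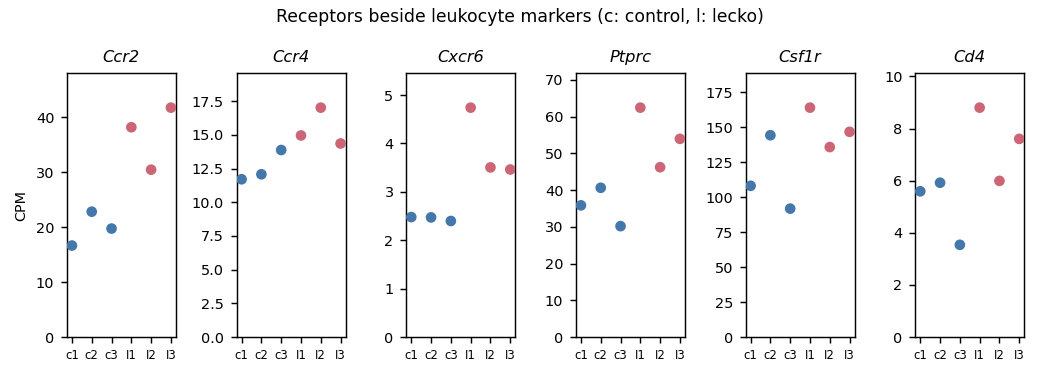
CPM in each library (c, control; l, lecko; each axis from 0) for the receptors Ccr2, Ccr4 and Cxcr6 and the leukocyte markers Ptprc, Csf1r and Cd4. The receptors, Ptprc and Cd4 do not overlap between groups, and Csf1r overlaps. For Cd4, control 2 (5.92 CPM) and lecko 2 (5.99 CPM) nearly meet.

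The remaining genes of the pathway were read from lists of signalling and inducing genes. Of 24 genes that carry chemokine receptor signals, 18 were positive and 6 were higher at an unadjusted p under 0.05, with 0 called by edgeR after adjustment. The 6 were Plcb2 (log2 fold change 0.63), Pik3cg (0.58), Rac2 (0.53), Pik3cd (0.36), Vav1 (0.38) and Rgs16 (0.72), most of them genes of haematopoietic cells, and Rac2 is also in the pan-leukocyte list. The G protein subunit genes Gnai2 and Gnai3 were each at 0.06. Of 11 NF-kB inducers and targets, Il1b alone was at an unadjusted p under 0.05. Il1b, an inflammatory cytokine gene, gave 1.1, 1.03 and 1.43 CPM in the controls and 7.84, 4.86 and 1.08 CPM in the lecko libraries, so lecko 3 was at the control level. Of 8 genes of the interferon gamma axis, Irf1, the transcription factor upstream of Cxcl9, was at 0.42 (unadjusted p = 0.0015, edgeR adjusted p = 0.379). Of 5 tested family genes outside the rule, none was at an unadjusted p under 0.05, among them Cx3cr1, the fractalkine receptor, at 0.57 (SE 0.29) and Ackr1 at -0.11 (SE 0.33).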

How the data were processed

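Polyadenylated RNA of 6 ear skin libraries (3 control, 3 lecko) was sequenced. The deposited table holds estimated counts per gene. Per the submitters' processing notes the tools were HISAT2 2.2.1, Bowtie2 2.4.5 and RSEM 1.3.1 with GRCm38.p6; the sources used here do not state their roles, the strand setting or the annotation. Expected counts were rounded to whole numbers, filtered with filterByExpr (minimum count 10, total 15; about 0.57 CPM in 3 libraries), scaled by TMM and tested with edgeR 4.0.16 in R 4.3.3 (robust quasi-likelihood, a model of group alone). P-values were adjusted over 14856 genes (Benjamini-Hochberg), and the threshold was 0.05. SE is the log2 fold change divided by the square root of F. Of the 35 tested members, 31 passed the filter in all 6 libraries, and Ccl17, Cxcl1, Cxcl10 and Cxcr3 did not.

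The members and lists were chosen with earlier results of these data known. Values in every library are given for members with an unadjusted p under 0.05 and for the most abundant tested member of each role list. Some genes counted in the totals are not reported here. Xcr1 was left out of the dendritic list because it is a member. Exon lengths are merged GENCODE M21 exons, and positions and promoters are from RefSeq (GRCm38.p6). The chi-square per degree of freedom between libraries of a group was 8.43 to 17.4, far above sampling noise, and all were kept as separate samples.

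Alternatives were DESeq2 1.42.0, limma-voom (limma 3.58.1), DESeq2 size factors, no filter or at least 1 CPM in 3 libraries, a fit without robust estimation, a replicate block, Y-linked expression (over 10 CPM) as a covariate and leaving out each library. Leaving out controls 2 and 3 was added after seeing the data. On simulated data for this comparison (10 runs, 200 genes changed), edgeR recovered 62.2% of genes changed 1.5-fold and 88.3% of those changed 2-fold. It made 13.6 false calls among 164 per run, above the nominal share, and 4.74% of unchanged genes had an unadjusted p under 0.05. The changed genes were drawn from those with a mean above 1 CPM. The real data gave 3 calls, so the simulated setting differs, and the recovery of the members themselves was not measured.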

Additional observations from a re-analysis of the deposited data

How the results depend on the processing

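No member was called by edgeR or limma-voom under any alternative run, and DESeq2 called 1, Ccr2. The count of called genes over all genes was 3, against 32 by DESeq2 and 3 to 37 with single libraries left out (37 without control 2, 8 without control 1 and 6 without lecko 2). Members higher at an unadjusted p under 0.05 numbered 9, against 5 with Y-linked expression as a covariate and 7 to 12 with single libraries left out. Members lower numbered 2, against 0 with that covariate and 0 to 1 with single libraries left out (0 without control 3 or lecko 1). The share of all genes under 0.05, in either direction, moved too. It was 8.56% in the main fit and 5.22% with the covariate. With single libraries left out it ran from 4.81% (without control 1) to 11.6% (without control 2). Without controls 2 and 3 only 1 control is left, so no count of members is given. The median log2 fold change of the tested members was 0.31, and 0.23 to 0.46 with single libraries left out, the highest without control 2.

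The 18 genes chosen for values in every library were all above the adjusted threshold in the main fit. Keeping their side of it therefore means only that they stayed above it. Of their 270 alternative values, 265 kept direction and side of the threshold, 1 passed it (Ccr2 by DESeq2) and 4 changed sign. These were Cxcr2 at -0.12 with Y-linked expression as a covariate, -0.13 without controls 2 and 3 and -0.03225 without control 2, and Cxcl1 at -0.354 without lecko 2 (up to 0.999 without lecko 3). The cause was not tested. With a replicate block, 9 members were higher, 2 lower and 0 called, with a median of 0.35. Same-numbered libraries had deviations correlated at 0.34, -0.07 and 0.04, so the numbers were not taken to pair the samples. Ccl12, Ccl17, Cxcl1, Cxcl10 and Cxcr3 lie near 1 CPM, and the 14 members with 7 to 104 counts in all are too shallow to compare.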
